A study of Mus musculus with 24 samples.

Results

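The miR-15/16 clusters are a pair of loci that each carry one mir-15 hairpin next to one mir-16 hairpin. Their 4 precursors, mmu-mir-15a, mmu-mir-16-1, mmu-mir-15b and mmu-mir-16-2 (written below without the species prefix mmu), were taken by name from the 1187 microRNA precursors counted in BV2 cells and in the extracellular vesicles (EVs) released by them, and all 4 were found. BV2 is an immortalised mouse microglial line, so every group stands for this 1 line and not for microglia of a brain. The cultures were controls, or were exposed over 72 h to lipopolysaccharide (LPS, a component of bacterial walls that engages Toll-like receptor 4) at 100 ng/mL, to the anti-inflammatory cytokine interleukin-10 (IL-10) at 50 ng/mL, or to transforming growth factor beta (TGF-β) at 50 ng/mL. Cells and EVs of these 4 conditions make 8 groups of 3 libraries, 24 libraries in all. The labels say neither what the controls received nor whether libraries sharing a label derive from independent cultures. The p-values therefore reflect only how far these libraries scatter, and that scatter may be technical.

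A microRNA precursor is a hairpin from which Dicer cuts a short duplex, and 1 strand of it guides Argonaute to messenger RNAs that pair with the seed near its 5′ end. The miR-15/16 family is known as a brake on the cell cycle and on survival: its targets include the messenger RNAs of cyclins D1 and E1 and of the anti-apoptotic protein Bcl2, and loss of the human mir-15a and mir-16-1 locus is a hallmark of chronic lymphocytic leukaemia. miR-16 is also much used as a reference in quantitative PCR of blood and vesicle RNA, which makes its constancy between conditions a practical question.

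On GRCm38.p6, mir-15a lies on chromosome 14 at 61632027 to 61632110 on the minus strand, and mir-16-1 at 61631880 to 61631972, 54 bases further on. Both fall in introns of all 8 transcripts of the long noncoding gene Dleu2 that span them, and 13 bases of mir-16-1 overlap an exon of 1 other annotated transcript. mir-15b lies on chromosome 3 at 69009772 to 69009835 on the plus strand and mir-16-2 at 69009902 to 69009996, 66 bases apart. They fall in introns of all 5 spanning transcripts of Smc4, which encodes a condensin subunit. The build used for the counts is not given in the sources used here, so these are positions of the named hairpins in RefSeq.

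The mature sequences below, from RefSeq (GRCm38.p6), are shown because they set what the 4 rows can tell apart. Capitals mark the seed, bases 2 to 8.
miR-15a-5p: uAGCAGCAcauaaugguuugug
miR-15b-5p: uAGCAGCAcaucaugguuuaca
miR-16-5p: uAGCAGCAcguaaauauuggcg
miR-16-1-3p: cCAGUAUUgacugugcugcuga
miR-16-2-3p: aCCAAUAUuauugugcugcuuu
The 5p strands of all 4 precursors share one seed. miR-15a-5p and miR-15b-5p are identical at 18 of 22 bases, and miR-16-5p matches miR-15a-5p at 16 and miR-15b-5p at 14 of 22. The single sequence miR-16-5p is cut from both mir-16 hairpins, while their 3p strands differ and match at 12 of 22 bases. The hairpins are printed with the 5p strand in capitals, to show where a read could come from either mir-16 copy and where it could not.
mir-16-1: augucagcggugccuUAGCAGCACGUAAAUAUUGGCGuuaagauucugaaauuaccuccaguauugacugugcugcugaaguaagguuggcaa
mir-16-2: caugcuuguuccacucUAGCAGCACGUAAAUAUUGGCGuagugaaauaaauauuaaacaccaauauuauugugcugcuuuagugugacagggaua
mir-15b: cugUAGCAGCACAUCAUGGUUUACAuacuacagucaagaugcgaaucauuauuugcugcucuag
The mir-16 hairpins are identical at 68 of 101 alignment columns, and their longest identical run is 23 bases. The deposited tables hold 1 count per precursor and do not separate arms, so a miR-16-5p read has no place of its own in them.

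The library totals ran from 185400 to 409969 counts for cells and from 15071 to 28727 for EVs, so a count of 0 allows up to 0.00162% of a cell library and up to 0.0199% of an EV library (3 counts of the total, counting error only). The single precursor mir-6236 took 49.91% to 79.52% of each EV library and 0.574% to 1.628% of each cell library. All 7 myeloid markers had counts in cells, with mir-142a, a precursor restricted to blood lineages, at 465 to 1395. Of 4 red cell markers 2 had counts in IL-10 cells, summing to 0 to 4 a library, and none in the other groups: mir-486a and mir-486b had 2 counts each over all cells, and the defining markers mir-451a and mir-144 were at 0. The liver marker mir-122 had 4 counts in all cells. Of 7 neuron markers 7, 4, 1 and 5 had counts in control, LPS, IL-10 and TGF-β cells, summing to 32 to 55, 20 to 36, 15 to 31 and 18 to 28 counts a library. Only 1 of them, mir-128-1, passed the low-count filter in cells. Epithelium markers, 5 in all, summed to 2 to 11, 2 to 14, 4 to 8 and 6 to 10 counts a library in these groups. Their part in the differences between treatments was not tested.

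In cells, mir-15a was the member furthest from control, with a lower mean in all 3 treatments, while the mean of each mir-16 row was higher. mir-15a had 38, 41 and 43 counts in the control libraries, 6, 9 and 16 with LPS, 21, 14 and 27 with IL-10, and 25, 17 and 20 with TGF-β. As normalised CPM, that is counts brought to a common library size with TMM factors, these were 104, 96.0 and 130 in controls, 30.7, 57.1 and 87.1 with LPS, 57.5, 46.6 and 74.1 with IL-10, and 89.0, 54.4 and 56.3 with TGF-β. Every control library lay above all 9 treated ones, and the 3 treated groups overlapped each other. How many of all precursors show such a gap was not counted. The means were 110.1 ± 17.7 in controls, 58.3 ± 28.2 with LPS, 59.4 ± 13.8 with IL-10 and 66.6 ± 19.5 with TGF-β (SD, n = 3). In bulk RNA like this, fewer cells carrying a precursor and less of it per cell cannot be told apart.

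Of the 3 treatments against control, mir-15a passed the test with LPS alone, by a small margin. Its log2 change was -0.91 ± 0.35 (SE) with LPS (edgeR quasi-likelihood test, adjusted p = 0.0472), -0.86 ± 0.30 with IL-10 (edgeR adjusted p = 0.0694) and -0.73 ± 0.30 with TGF-β (edgeR adjusted p = 0.137). With so few counts the 95% intervals were wide, from -1.63 to -0.20, from -1.48 to -0.25 and from -1.35 to -0.11. The LPS call was lost when any of 4 of the 6 libraries was left out: LPS library 1 (-0.61, edgeR adjusted p = 0.224), LPS library 2 (-1.03, 0.0571), control library 1 (-1.001, 0.0552) or control library 3 (-0.81, 0.118). It held under DESeq2's Wald test (-0.995, adjusted p = 0.0427). The 3 comparisons share their controls. A contrast of the mean of the 3 treatments with control, added after these values had been seen, gave -0.84 ± 0.24 for mir-15a (SE) and is given without a test. The treatments did not pass a test against each other for mir-15a: the difference was -0.05 (95% interval -0.83 to 0.73) for LPS against IL-10, -0.18 (-0.96 to 0.60) for LPS against TGF-β and -0.13 (-0.81 to 0.55) for IL-10 against TGF-β.

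**Figure D1:**
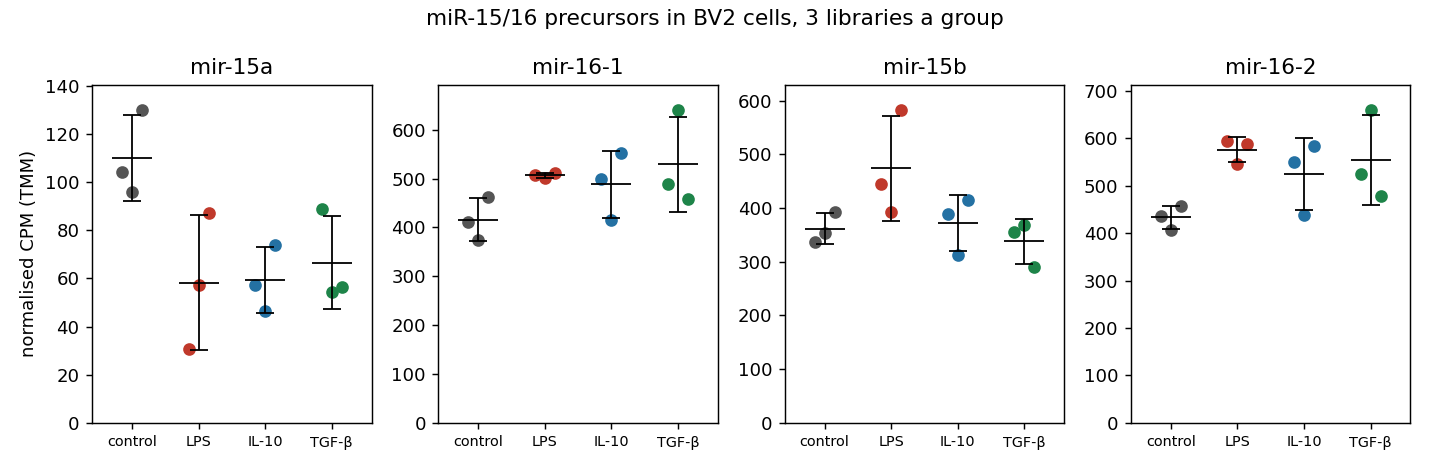
Normalised CPM (TMM) of the 4 precursors in BV2 cells, by treatment; points are libraries, bars are the mean ± SD of 3, and each panel has its own axis from 0. The 3 control points of mir-15a lie above its 9 treated points, whereas for mir-16-1 and mir-16-2 the LPS points lie above the controls.

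The row of mir-16-1, which yields the same miR-16-5p as mir-16-2, passed the test against control in none of the 3 treatments. It stood at 411, 375 and 462.5 normalised CPM in control cells, at 506.6, 501.3 and 511.8 with LPS, at 498, 416 and 551 with IL-10 and at 488, 640.4 and 459 with TGF-β. The LPS libraries lay close together and above the controls, and the other groups overlapped the controls. Its log2 change was 0.29 with LPS (95% interval -0.04 to 0.62, edgeR adjusted p = 0.173), 0.24 with IL-10 (-0.07 to 0.55, 0.324) and 0.35 with TGF-β (0.04 to 0.66, 0.157), none of them past the test.

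The row of mir-16-2 passed the test with LPS, and with the counts of both mir-16 rows summed it no longer did (0.35, edgeR adjusted p = 0.0812). The mir-16-2 row stood at 436, 407.5 and 456.5 normalised CPM in controls and at 593.5, 546 and 588 with LPS, with no overlap, which is a log2 change of 0.41 ± 0.15 (edgeR adjusted p = 0.0452). With IL-10 it stood at 550.1, 439 and 584 (0.28 ± 0.15, edgeR adjusted p = 0.221) and with TGF-β at 523.6, 659.6 and 478 (0.35 ± 0.15, edgeR adjusted p = 0.143). The LPS call rests on the scaling: scaled by library totals alone, the log2 change was -0.01 for mir-16-2, -0.13 for mir-16-1 and -0.01 for mir-15b, against a median of -0.32 over all tested precursors, where TMM put that median at 0.09. DESeq2's Wald test did not call mir-16-2 with LPS (0.34, adjusted p = 0.137), and leaving out any 1 of the 6 libraries ended the call (0.25 to 0.43).

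mir-15b, the other precursor on chromosome 3, passed no test against control. It stood at 337, 354 and 393 normalised CPM in controls, 445, 393.5 and 582.6 with LPS, 389, 313 and 414 with IL-10, and 356, 368 and 290 with TGF-β. The lowest LPS library exceeded the highest control by less than 1 unit, and the IL-10 and TGF-β groups overlapped the controls. The log2 change was 0.40 ± 0.17 with LPS (edgeR adjusted p = 0.0701), 0.05 with IL-10 (95% interval -0.28 to 0.37) and -0.10 with TGF-β (-0.43 to 0.23). Between treatments, mir-15b was higher with LPS than with TGF-β by 0.50 ± 0.17 on the log2 scale (edgeR adjusted p = 0.0259). This was lost without LPS library 3 (0.33, edgeR adjusted p = 0.213) or TGF-β library 3 (0.38, 0.132), with library totals (0.24) and with no low-count filter (0.41).

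The number of members called can be read against all 259 precursors tested in cells. With LPS 2 of the 4 were called, where 32.0% of all precursors were, and all 4 had libraries that did not overlap the controls, as did 47.5% of all. With IL-10 edgeR called 0 of the 4 (7.72% of all), 1 had an unadjusted p under 0.05, DESeq2 called 0, and mir-15a alone did not overlap (32.0% of all). With TGF-β edgeR called 0 of the 4 (6.56% of all), 3 had an unadjusted p under 0.05, DESeq2 called 0, and mir-15a and mir-16-2 did not overlap (25.9% of all). Between treatments, 1 of 4 was called for LPS against TGF-β (32.0% of all), 0 for LPS against IL-10 (44.4%) and 0 for IL-10 against TGF-β (14.7%). In the last 2 comparisons edgeR's unadjusted p was under 0.05 for 1 and 0 members, and DESeq2 called 0. Of all 259 precursors DESeq2 called 21 with IL-10, 18 with TGF-β, 109 for LPS against IL-10 and 36 for IL-10 against TGF-β.

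**Figure D2:**
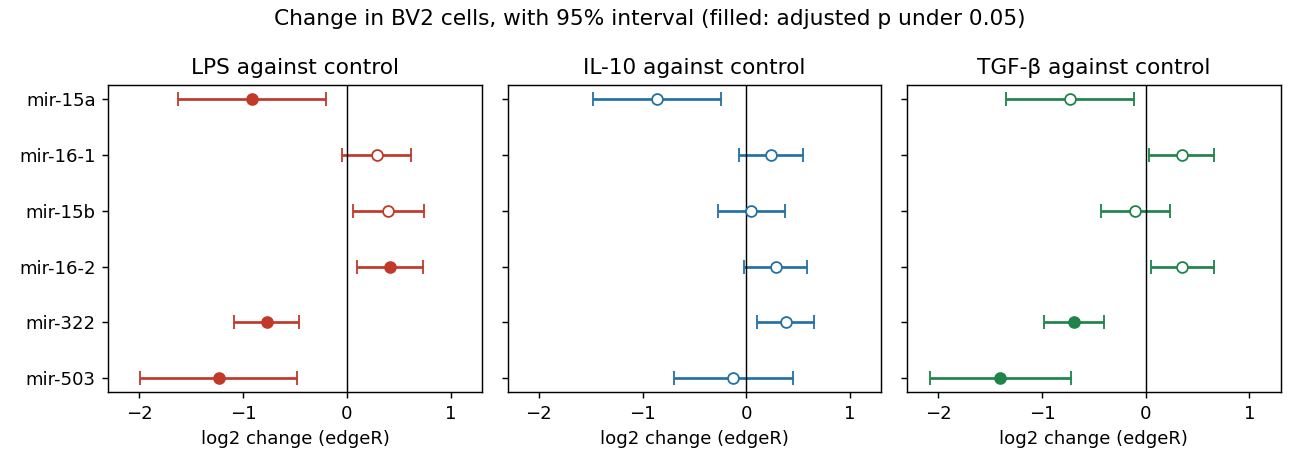
Log2 change (edgeR) against control in BV2 cells for the 4 precursors and for mir-322 and mir-503, with 95% intervals; filled symbols have an adjusted p under 0.05. mir-15a lies left of 0 in all 3 panels, at -0.91, -0.86 and -0.73, while mir-322 and mir-503 are filled with LPS and TGF-β and not with IL-10.

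Shares within the family need no scaling between libraries, and mir-15a was lower within the mir-15 pair as well. Of the counts of mir-15a and mir-15b together, mir-15a made up 23.6%, 21.35% and 24.86% in the control libraries. The share was 6.452%, 12.68% and 13.01% with LPS, 12.88%, 12.96% and 15.17% with IL-10, and 20%, 12.88% and 16.26% with TGF-β. All 9 treated libraries lay below the lowest control. The group means were 23.3% ± 1.77, 10.7% ± 3.69, 13.7% ± 1.297 and 16.4% ± 3.56 (SD, n = 3). With its cluster neighbour as the denominator, mir-15a made up 20.9% ± 0.948 of mir-15a plus mir-16-1 in controls, 10.2% ± 4.42 with LPS, 10.8% ± 0.953 with IL-10 and 11.4% ± 3.82 with TGF-β, again with no overlap with the controls. The mir-16-1 row may hold reads of the other mir-16 copy, so this share does not compare precursors within a single locus. Both shares were added after the values had been seen, so they are given without a test.

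**Figure D3:**
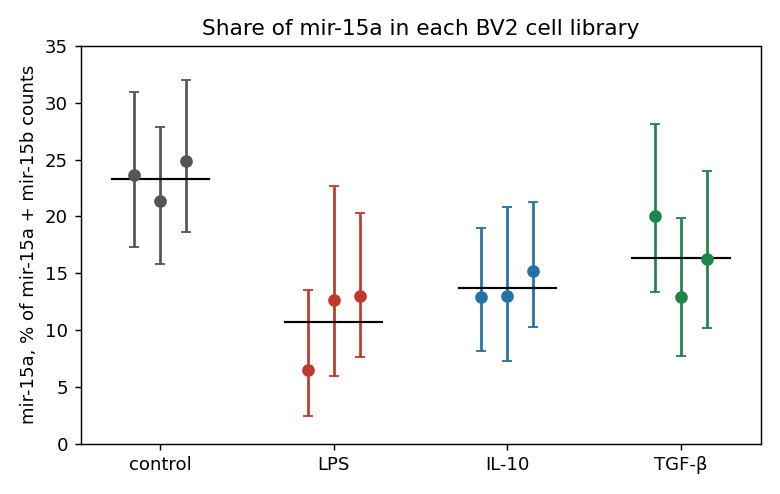
Share of mir-15a in the counts of mir-15a plus mir-15b in each BV2 cell library, in percent, with the exact 95% binomial interval (counting error only); horizontal lines are group means. Controls lie at 21.35% to 24.86%, and all treated libraries at 20% or below.

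The sum of the mir-16 rows made up 64.3% ± 1.24 of the counts of all 4 in controls, 67.3% ± 4.45 with LPS, 70.2% ± 0.240 with IL-10 and 72.6% ± 3.03 with TGF-β. The IL-10 and TGF-β libraries did not overlap the controls. The rows of the chromosome 3 pair made up 60.2% ± 1.45 in controls, 64.9% ± 1.92 with LPS, 62.1% ± 0.681 with IL-10 and 60.0% ± 0.374 with TGF-β. For this share the LPS libraries, at 62.71% to 66.15%, lay above the controls, at 58.91% to 61.79%. Reads of the strand common to both mir-16 hairpins cannot be assigned to a locus. The share therefore does not show that the output of either locus changed. Of the mir-16 counts, the mir-16-2 row made up 51.07% in controls and 53.18% with LPS, where the groups came within a small margin of each other (52.12% against 52.1%) without overlap. For these and for the split of mir-16 between its copies, 21 comparisons were tested by permutation, and none had an adjusted p below 0.2625; with 3 libraries against 3 the two-sided exact permutation test cannot go below 0.1. Summed, the 4 precursors stood at 1321 ± 109, 1614 ± 139.5, 1444 ± 209.5 and 1488 ± 222 normalised CPM in control, LPS, IL-10 and TGF-β cells. As a share of the library the sums were 0.152%, 0.139%, 0.144% and 0.152%, so the order of the conditions depends on the scaling.

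The 2 mir-16 rows followed each other far more closely than separate counts would. In the control libraries mir-16-1 and mir-16-2 had 150 and 159, 160 and 174, and 153 and 151 counts. Across the 12 cell libraries mir-16-2 exceeded mir-16-1 in 11, by -2 to 19 counts with a median of 9.5. The chi-square of the split over libraries was 1.55 on 11 degrees of freedom, a ratio of 0.141, where counts drawn apart give a ratio near 1. For mir-15a and mir-15b, whose 5p strands differ, the same ratio was 2.82. That value spans all treatments, and the mean share of mir-15a in this pair was 23.3% in controls and 10.7% with LPS. It therefore includes differences between treatments and does not show how counts of separate strands scatter. The ratio within a treatment was not computed. Pearson's r of log2 normalised CPM between the mir-16 rows was 0.952 over 12 libraries (Spearman's rho 0.958), while mir-15a had an r of -0.320 with mir-16-1 and 0.0483 with mir-15b. All these points share the depth of their library. The pair of mir-16 rows therefore cannot be counted as separate observations, and a call for mir-16-2 without one for mir-16-1 does not show that the copies differ. Sums that include both rows, in cells and in EVs, may hold the same reads more than once.

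**Figure D4:**
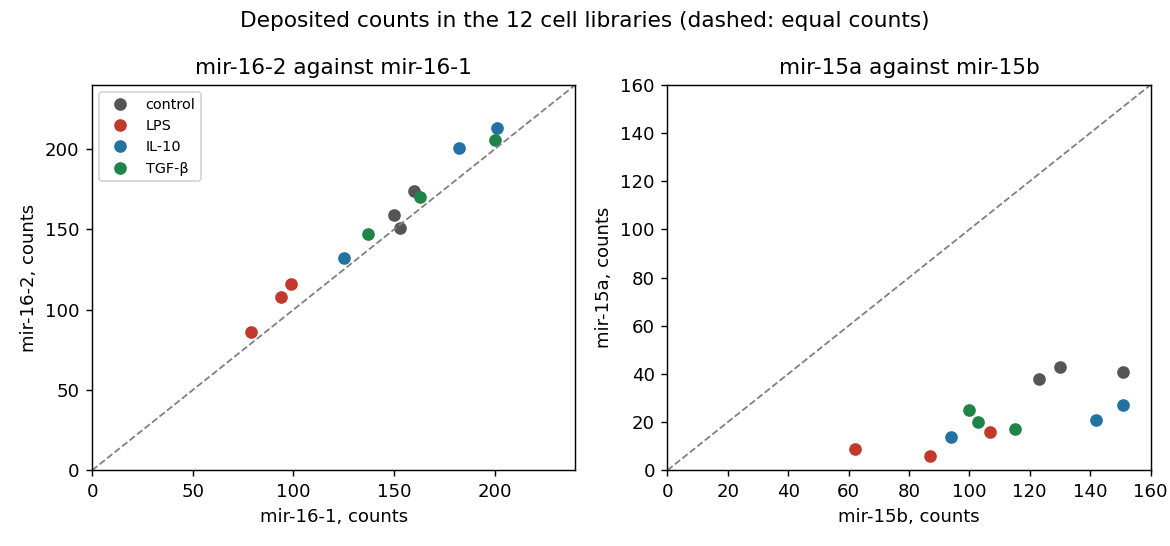
Deposited counts in the 12 cell libraries, coloured by treatment, of mir-16-2 against mir-16-1 (left) and of mir-15a against mir-15b (right); the dashed line marks equal counts. The mir-16 points run along the line, 11 of 12 just above it, while the mir-15 points scatter far below theirs.

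Over the 12 cell libraries the mir-16 rows were among the steadier precursors and mir-15a was not. The coefficient of variation of normalised CPM was 14.4% for mir-16-1 (rank 38 of 259, lowest first), 15.0% for mir-16-2 (rank 48), 19.5% for mir-15b (rank 92) and 38.5% for mir-15a (rank 196). Counting error alone would give 8.30%, 8.03%, 9.38% and 20.8%. The median was 24.0% over all tested precursors and 19.3% over 15 precursors used as references in quantitative PCR. The steadiest of these, mir-423, had 5.10%, which is rank 1 of all. Of these 15 references edgeR called let-7g higher with LPS and mir-103-1 (-0.53, adjusted p = 0.0379) and mir-103-2 (-0.54, 0.0430) lower, let-7a-1 higher with IL-10, and let-7i and mir-93 higher with TGF-β. The calls of mir-103-1 and mir-103-2 were lost without LPS library 3 (-0.37 and -0.35) and without control library 1 or 3. With library totals alone 0 of the 15 were called higher and 6 lower with LPS. The calls of let-7g, let-7a-1 and mir-93 were likewise lost when single libraries were left out. By library totals the mir-16 rows ranked 34 and 17, so their place among the steadier precursors did not rest on TMM.

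The precursors most like each member over the 12 cell libraries were named by the highest Pearson's r of log2 normalised CPM among 255 others, as a description in which all points share library depth. For mir-15a these were mir-1306 (r 0.851, rho 0.825), mir-677 (0.752, 0.706) and mir-365-1 (0.676, 0.727). mir-186 came first for both mir-16 rows, with r 0.760 and rho 0.867 for mir-16-1 and r 0.846 and rho 0.839 for mir-16-2. mir-30b (0.712) and mir-29a (0.656) followed for mir-16-1, and mir-29a (0.808) and mir-29c (0.760) for mir-16-2. For mir-15b they were mir-1198 (0.804), mir-1983 (0.754) and mir-29b-2 (0.751). With library totals in place of TMM, mir-1306, mir-677, mir-1198 and, for mir-16-2, mir-186 kept their ranks, and mir-29a fell to rank 94 for mir-16-1.

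Other precursors of the seed family were mostly absent from BV2 cells. Of 9 relatives in the tables, 7 share the seed (mir-195a, mir-195b, mir-322, mir-497a, mir-6342, mir-6353 and mir-6419), and mir-497b and mir-503 do not. Only mir-322 and mir-503, neighbours in one cluster on the X chromosome, passed the low-count filter in cells. Their 5p strands are printed with bases 2 to 8 in capitals, next to miR-195a-5p, which matches miR-16-5p at 19 of 21 bases.
miR-322-5p: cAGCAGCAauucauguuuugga
miR-503-5p: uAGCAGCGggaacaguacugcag
miR-195a-5p: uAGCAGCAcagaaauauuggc
mir-195a had 1 to 4 counts in each cell library, mir-497a 0 to 5, and the other 5 were at 0 in all 12. mir-322 had 199, 271 and 234 counts in controls, 79, 53 and 66 with LPS, 285, 266 and 289 with IL-10, and 97, 130 and 143 with TGF-β. It fell by 0.77 on the log2 scale with LPS (edgeR adjusted p = 0.000312) and by 0.69 with TGF-β (edgeR adjusted p = 0.00186), and its change with IL-10 was 0.38 (95% interval 0.11 to 0.65, edgeR adjusted p = 0.0694). mir-503 had 30, 37 and 37 counts in controls, 5, 9 and 7 with LPS, 32, 24 and 32 with IL-10, and 13, 13 and 7 with TGF-β. It fell by 1.24 with LPS (edgeR adjusted p = 0.0130) and by 1.40 with TGF-β (edgeR adjusted p = 0.00754), and its change with IL-10 was -0.13 (-0.70 to 0.45). The LPS fall of mir-503 was lost without LPS library 1 (-1.01, edgeR adjusted p = 0.0705).

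Other precursors known to act on the cell cycle were set beside the members. Of 16 precursors that restrain it, 9 passed the filter. With LPS 1 was called higher, let-7g at 0.42 (edgeR adjusted p = 0.0177), and the list's median was -0.04 against 0.09 over all tested. The let-7g call was lost with library totals (0.01), with no filter, and without control library 1 or 2 or LPS library 1 or 3. With library totals the list had 0 called higher and 4 lower with LPS, so its direction depends on the scaling. With IL-10 1 was called higher, let-7a-1 at 0.48 (edgeR adjusted p = 0.0295), with a median of 0.16 against 0.05. The let-7a-1 call was lost without control library 1 (0.38, edgeR adjusted p = 0.0726) or 3 (0.46, 0.0754) and without IL-10 library 2 (0.37, 0.152) or 3 (0.498, 0.0686). With TGF-β 2 were called higher, let-7i at 0.74 (edgeR adjusted p = 0.000345) and mir-34a, a p53 target, at 0.56 (0.0466), with a median of 0.21 against 0.09. The mir-34a call was lost in all 8 other settings that kept every library of the comparison, at 0.40 to 0.55. Of 12 precursors that drive proliferation all passed. With LPS 6 were called higher and 0 lower (median 0.35, against 0.09 over all tested), where 54 of all 259 precursors were called higher and 29 lower. mir-222 at 2.29 (edgeR adjusted p = 2.56e-12) and mir-21a at 2.02 (5.53e-11) came first. With library totals 3 were called higher and 0 lower (median -0.06, against -0.32 over all tested). With IL-10 2 were called higher, mir-21a at 1.90 and mir-222 at 0.76, and 2 lower, mir-92a-1 at -0.91 and mir-17 at -0.53 (median 0.06). The mir-17 call was lost without control library 1 (-0.48, edgeR adjusted p = 0.0809), IL-10 library 2 (-0.495, 0.103) or IL-10 library 3 (-0.47, 0.0794). With TGF-β mir-93 was called higher at 0.56, and mir-222 at -1.05 and mir-21a at -1.03 were called lower (median -0.15). The mir-93 call was lost with library totals (0.41, edgeR adjusted p = 0.0694), with no filter (0.46, 0.0661), and without control library 1 (0.49, 0.0539) or TGF-β library 2 (0.45, 0.0585).

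In EVs the 4 precursors were close to the limit of detection. The 12 EV libraries held 37 member counts in all, against 5248 in cells, 32 of 48 values were 0, and 3 libraries had none. mir-15a had 2, 0 and 0 counts in control EVs, 0, 1 and 0 with LPS, and none with IL-10 or TGF-β. mir-16-1 had 0, 0 and 2 in controls, 0, 0 and 6 with LPS, 0, 2 and 0 with IL-10, and 0, 1 and 0 with TGF-β. mir-15b had 1, 0 and 1, then 0, 3 and 2 with LPS, 0 in all 3 with IL-10, and 0, 0 and 1 with TGF-β. mir-16-2 had 0, 0 and 2, then 0, 0 and 8 with LPS, 1, 2 and 2 with IL-10, and 0 in all 3 with TGF-β. LPS EV library 3 alone held 16 of the 20 counts of its group, and it was also the one EV library with mir-497a, at 9 counts. No member passed the low-count filter in EVs, where 71 precursors were tested. Without a filter, edgeR gave 24 member tests between treatments, of which 0 had an unadjusted p under 0.05 and 0 were called (lowest adjusted p 0.5604). DESeq2 was run only behind the same low-count filter, so it could test no member in EVs. A difference between treatments in EVs was therefore not detectable at this depth.

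Set against the cells, the 4 precursors summed were less frequent per library total in EVs, as was the median precursor. Over all 280 tested, the median log2 change by library totals was -2.669, -1.139, -2.805 and -2.989 in control, LPS, IL-10 and TGF-β. Without mir-6236 and mir-6240 the gap was smaller, and in control and with IL-10 its direction was not settled. At the share of the cells, the 3 control EV libraries would have held 74.4 counts of the 4 precursors, and 8 were found, which is 10.75% of the share in cells (exact 95% interval 4.63% to 21.2%). With LPS 20 were found for 109 (18.3%, 11.1% to 28.5%), with IL-10 7 for 70.3 (9.96%, 4.00% to 20.6%) and with TGF-β 2 for 72.6 (2.75%, 0.333% to 9.97%). Without LPS EV library 3 the LPS value was 5.47%. These intervals pool 3 libraries, cover counting error only and take both mir-16 rows as separate counts, so they may be too narrow. With mir-6236 and mir-6240 left out of all totals the values were 60.6% (26.1% to 119.8%), 46.1% (28% to 71.6%), 51.1% (20.5% to 105.5%) and 14.2% (1.72% to 51.55%), and the intervals for control and IL-10 then reached past 100%. For mir-15a taken by itself, the share of the cells predicts only 6.16, 3.89, 2.90 and 3.21 counts in control, LPS, IL-10 and TGF-β EVs. That is too few to settle whether its share was lower. Its 2 counts in control EVs were 32.45% of the share in cells (3.886% to 119.7%), or 183% (21.92% to 675.4%) without mir-6236 and mir-6240. Its 1 count with LPS was 25.69% (0.6304% to 154.2%). At 0 with IL-10 and TGF-β, its intervals reached 131.1% and 118.4%. Without mir-6236 and mir-6240 most intervals of the other members also passed 100%, and mir-16-2 with IL-10 stood at 100.4%. Only those of mir-16-1 and mir-15b with LPS (up to 97.37% and 92.44%) and of mir-16-2 with TGF-β (up to 70.73%) stayed below.

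**Figure D5:**
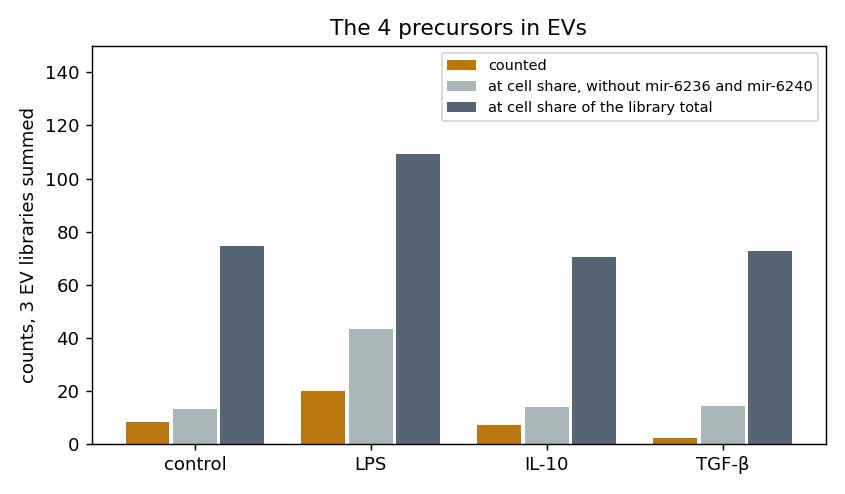
Counts of the 4 precursors in EVs, summed over 3 libraries per treatment, beside the counts expected at their share in cells, with and without mir-6236 and mir-6240 in the totals. Found were 8, 20, 7 and 2 counts, where the library totals predict 70.3 to 109 and the reduced totals 13.2 to 43.4.

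edgeR's test over all 24 libraries called 1 member lower in EVs with IL-10 and 1 with TGF-β, and none in control or with LPS. In either direction it called 43.2%, 43.2%, 38.6% and 30.7% of 280 precursors in these 4 comparisons. Called lower were 44 of the 280 with IL-10 and 50 with TGF-β. No member passed the low-count filter in EVs alone, so all 4 entered this fit through the cell libraries, where their counts are high. A call of lower in EVs is thereby favoured, and no conclusion is drawn from these calls. In control and with LPS, 0 and 1 members had an unadjusted p under 0.05. DESeq2 called 0 members in each of the 4 comparisons, against 101, 110, 102 and 107 of 280 precursors in control, LPS, IL-10 and TGF-β. The called members were mir-15b with IL-10 (edgeR adjusted p = 0.0206) and mir-16-2 with TGF-β (edgeR adjusted p = 0.0398), each at 0 in the 3 EV libraries. With a floor of 3 counts over the group, which takes the share in cells as exact, mir-15b was at least 6.03-fold lower and mir-16-2 at least 9.03-fold lower per library total. By library totals the median of all 280 precursors was itself at -2.805 with IL-10 and -2.989 with TGF-β on the log2 scale. Without mir-6236 and mir-6240 that floor gave 1.18-fold and 1.75-fold. There the exact 95% interval of mir-15b reached 105% of the share in cells, so no lower share is shown for it. That of mir-16-2 reached 70.73%. Both members were singled out by their calls, so no lower share is concluded for mir-16-2 either. With DESeq2's size factors neither was called (edgeR adjusted p = 0.119 and 0.209). The change from cells to EVs was also compared between treatments. For none of the 4 members did the LPS, IL-10 or TGF-β effect in EVs differ from that in cells past edgeR's test, where 6.07%, 0% and 0% of all precursors did. No member had an unadjusted p under 0.05 there, against 79, 36 and 30 of all precursors. DESeq2 called no member, against 45, 4 and 15 of all precursors.

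EV libraries also carried markers of other cell types. Of 5 muscle markers 3, 3, 2 and 2 had counts in control, LPS, IL-10 and TGF-β EVs, summing to 13 to 24, 5 to 7, 5 to 23 and 6 to 8 counts a library, against 0 to 4 in the far deeper cell libraries. Of 4 red cell markers 2, 2, 1 and 1 had counts, summing to 0 to 23, 0 to 2, 0 to 25 and 0 to 3, with mir-144 at up to 25 and mir-451a at 1 in all. Of 7 neuron markers 7, 6, 5 and 2 had counts, summing to 7 to 78, 0 to 7, 0 to 5 and 0 to 2. Of the 7 myeloid markers 4, 5, 3 and 4 had counts, with mir-142a at 5 to 76 and mir-223 at 0 in all 12. Their part in the EV values of the miR-15/16 precursors was not tested.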

How the data were processed

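Small RNA of BV2 cells and their EVs was amplified over 18 PCR cycles (SMARTer smRNA-seq kit), per the labels' protocols. The authors deposited whole, unnormalised read counts per precursor in 8 tables, of which 2 repeat another; 6 were used, with each compartment's shared control columns taken once. The submitters' processing notes name DESeq2, while an aligner, annotation or build is not given in the sources used. Column names give the group and a number that ties no library to another group.

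Counts were tested with edgeR 4.0.16 (R 4.3.3): TMM factors, filterByExpr at min.count 10, and the quasi-likelihood F test, in 1 fit each for 12 cell libraries, 12 EV libraries and all 24. P-values were adjusted by Benjamini-Hochberg over every precursor that a comparison tested, with calls made under 0.05. SE is the log2 change over the root of F. DESeq2 1.42.0 was an alternative. Each comparison names all 4 members, the relatives that passed the filter, the 2 called precursors with the smallest p in each direction for the lists of precursors that restrain the cell cycle, drive proliferation or serve as references, and the 3 precursors with the highest r for each member. Shares were compared by two-sided permutation tests, and intervals are exact binomial. Sequences are from RefSeq, host genes from the GENCODE annotation of GRCm38. The procedure was tested on simulated data. The members and lists were chosen with earlier results of these data known.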

Additional observations from a re-analysis of the deposited data

How the results depend on the processing

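Few counts set the limits: mir-15a had 6 to 43 counts in a cell library and the members 0 to 8 in an EV library. With library totals alone the median log2 change of all precursors moved from 0.09 to -0.32 with LPS, from 0.05 to -0.17 with IL-10 and from 0.09 to -0.07 with TGF-β, and in control EVs against cells from -0.54 to -2.67 (0.28 with DESeq2's factors). No paired analysis was possible because neither labels nor column names tie a library of one group to one of another.

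With LPS against control 2 members were called. That was 1 under each of the 8 other settings: DESeq2's factors, library totals, no filter, a mean of at least 50 counts, DESeq2's Wald test, no mir-6236 or mir-6240, mir-16 copies summed, and the 2 groups alone. It was 0 to 1 with each library left out. Of all 259 precursors, DESeq2's factors called 97, library totals 130 and DESeq2's Wald test 88. Without mir-6236 and mir-6240, 97 of 257 were called. Here and below, no count over all precursors is given for the other settings or for a library left out. Member calls there cannot be read against a background. mir-15a, not tested with a mean of at least 50 counts, was called in the other 7 settings, at -1.32 to -0.91 (-1.38 to -0.61 with a library left out). Library totals turned mir-16-1 to -0.132, mir-15b to -0.014 and mir-16-2 to -0.005.

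With IL-10, 1 member in place of 0 was called with library totals (mir-15a at -1.07, with 29 of all 259 precursors called), no filter (-0.96) and the 2 groups alone (-0.94). mir-15b with IL-10 turned to -0.016 with DESeq2's factors, -0.156 with library totals, -0.045 with no filter, -0.018 with DESeq2's Wald test, -0.026 without mir-6236 and mir-6240, and -0.025 in the 2 groups alone (-0.061 to 0.147 with a library left out). For LPS against TGF-β the 1 call became 0 with library totals (103 of all 259 precursors called) and with no filter, and 0 to 1 with a library left out. There mir-16-2 turned to -0.194 and -0.025 in those settings and mir-16-1 to 0.011 with the copies summed. With a library left out mir-15a ranged from -0.614 to 0.164, mir-16-1 from -0.167 to 0.099 and mir-16-2 from -0.050 to 0.205.

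For EVs against cells, library totals called 3 members in control, 3 with LPS, 3 with IL-10 and 4 with TGF-β. Of all 280 precursors, library totals called 225, 152, 219 and 207 in these comparisons. With LPS 2 were called with no filter, 1 without mir-6236 and mir-6240 (114 of 307 precursors) and 1 with the copies summed. For no filter and the copies summed there is no count over all precursors to set beside them. The 1 call with IL-10 and the 1 with TGF-β became 0 with DESeq2's factors, a mean of at least 50 counts or DESeq2's Wald test. DESeq2's factors called 92 and 91 of all 280 precursors there. With TGF-β 2 members were called with no filter and 2 with the copies summed, again without a count over all precursors. With a library left out, 0 to 2 members were called in each of these 4 comparisons. Where no value above shows it, the cause was not tested. The 100 alternative values of shares within the family moved by no more than the SD between libraries. For most of them this was fixed in advance, so it does not show that the shares are robust. A mean with 1 of 3 libraries left out cannot move by more than the SD. The floor on counts in the denominator was passed by every cell library.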
